A study of Xenopus laevis with 3 samples.

Results

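Chaperones, folding enzymes and cold-inducible or stress-responsive proteins were measured for 120 of the 11303 gene symbols named on the *Xenopus laevis* array, by 160 of its 32539 probe sets. They were chosen by symbol alone: the heat shock protein, J protein, CCT, BAG, protein disulfide isomerase, FKBP and heat shock factor families, together with cirbp, calr, canx, serpinh1, xbp1, atf4, ddit3 and ddit4. The 120 symbols fall under 91 base names, since *X. laevis* is an allotetraploid whose genes often persist as L and S homeologs. Of these probe sets, 143 reached a signal of 40 in at least 1 array and 17 stayed under it in all 3. The symbols hspbap1.L and tcp11l1.L entered by their letters only, do not belong to the chaperone families, and were among those under 40.

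RNA from embryos at stage 11, the gastrula, was hybridized to 1 array for each of 3 conditions, with 50 embryos pooled for each array. Control embryos received water. GlyR+IVM embryos received mRNA of the glycine-gated chloride channel and were kept in ivermectin, a drug that opens the channel. DN-KATP embryos received mRNA of a dominant-negative KATP potassium channel subunit, listed in the sample labels as the 666 chimera. The 2 channels carry different ions, and both were used to depolarize cells of the embryo. The study's methods place the injection at the 1-cell stage and its deposited description at the 4-cell stage. The sample labels name the GlyR+IVM array only as GlycineR, and ivermectin is given by the study's methods alone, for that group only. Control received no mRNA, so effects of the drug or of injected mRNA cannot be told apart from those of the channels. Because each condition is 1 array, the scatter among replicates is unknown, no comparison has a p-value, and each difference describes these arrays alone.

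Chaperones hold unfolded proteins out of aggregation and let them fold, often in cycles driven by ATP: HSP70 with its J protein partners and exchange factors, HSP90 with its co-chaperones, and the barrel-shaped chaperonins HSP60 and CCT. Heat shock factors switch on cytosolic chaperones when unfolded protein accumulates, while the unfolded protein response, through xbp1, atf4 and their targets, does so for the endoplasmic reticulum (ER). The cold-inducible RNA-binding protein, encoded by cirbp, stabilizes and helps translate other mRNAs under mild cold and other stresses, and is abundant in early *Xenopus* embryos.

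The median signal of all probe sets was 92.7 in Control, 96.7 under GlyR+IVM and 101 under DN-KATP, and that of the chaperone and stress protein probe sets 684, 702 and 664. Signals of the 27 hybridization spike-ins were 1.34-fold and 1.37-fold above Control in the depolarized arrays, so scaling the arrays to them shifts the median log2 ratio of all probe sets to -0.43 and -0.42. Germ layer markers were present: all 10 mesoderm and all 12 endoderm probe sets reached 40 in Control, and 12 of 15 for ectoderm, with tp63 alone under 40 among its genes. Their median log2 ratios were -0.32 under GlyR+IVM and -0.07 under DN-KATP for mesoderm, 0.43 and 0.42 for endoderm, and -0.23 and 0.09 for ectoderm. Endoderm probe sets were above Control at 9 of 12 in each depolarized array. Their summed signals were 18568, 29335 and 27658 in the order Control, GlyR+IVM and DN-KATP, of which a2m.S alone gave 7264, 14022 and 12308. Mesoderm probe sets summed to 30825, 26233 and 25392, and 2 and 5 of 10 were above Control. Bright probe sets weigh most in such sums. The part of these shifts in the values below was not tested. Markers of cell types not yet formed, myh6, tnni3, globins and neurod1 among them, were all under 40 in Control, and the highest reached 66.4, in GlyR+IVM. In whole embryos, a change in the share of a cell type cannot be told apart from a change of RNA within cells.

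As a group, chaperone and stress protein transcripts stayed close to Control, and DN-KATP held more of them below it than GlyR+IVM did. To count as higher, both depolarized signals had to be 40 or more and each at least 2-fold above Control; to count as lower, Control had to be 40 or more and at least 2-fold above each. By this rule 1 of 160 was higher, for cirbp.L, against 1.25% of all probe sets, and 0 were lower, against 0.470%. In GlyR+IVM, 4 were at least 2-fold higher than Control and 2 at least 2-fold lower, where 3.41% and 2.02% of all probe sets were. In DN-KATP, 5 were higher and 2 lower, against 3.88% and 1.83%. The spread of the log2 ratios over probe sets at 40 or more was also narrower than that of the array, with a standard deviation of 0.40 against 0.66 in GlyR+IVM and 0.48 against 0.69 in DN-KATP. Many of these genes are strongly expressed, and 72 of the 160 had a Control signal of at least 1000. Among probe sets with a mean signal from 1000 to 10000 the gap was smaller. The standard deviation there was 0.34 against 0.38 in GlyR+IVM and 0.38 against 0.44 in DN-KATP. From 100 to 1000 it was 0.42 against 0.55 in GlyR+IVM and 0.39 against 0.60 in DN-KATP.

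The direction differed between the arrays. In GlyR+IVM, 72 of the 143 probe sets at 40 or more lay below Control, close to the 48.5% of all probe sets, with a median log2 ratio of -0.0016 against 0.01 for the array. In DN-KATP, 92 of 143 lay below it, which is 64.3% against 45.0% of all probe sets, and the median was -0.13 against 0.05. Among probe sets of mean signal from 1000 to 10000, 66.7% of the 63 chaperone and stress protein probe sets and 55.1% of all lay below Control in DN-KATP. From 100 to 1000 the gap was wider, with 71.9% of 57 against 44.9% of all. Set directly against GlyR+IVM, DN-KATP was lower at 94 of 143, or 65.7% against 46.7%. The DN-KATP and GlyR+IVM comparisons use the same Control array, and none of these shares carries a test.

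**Figure D1:**
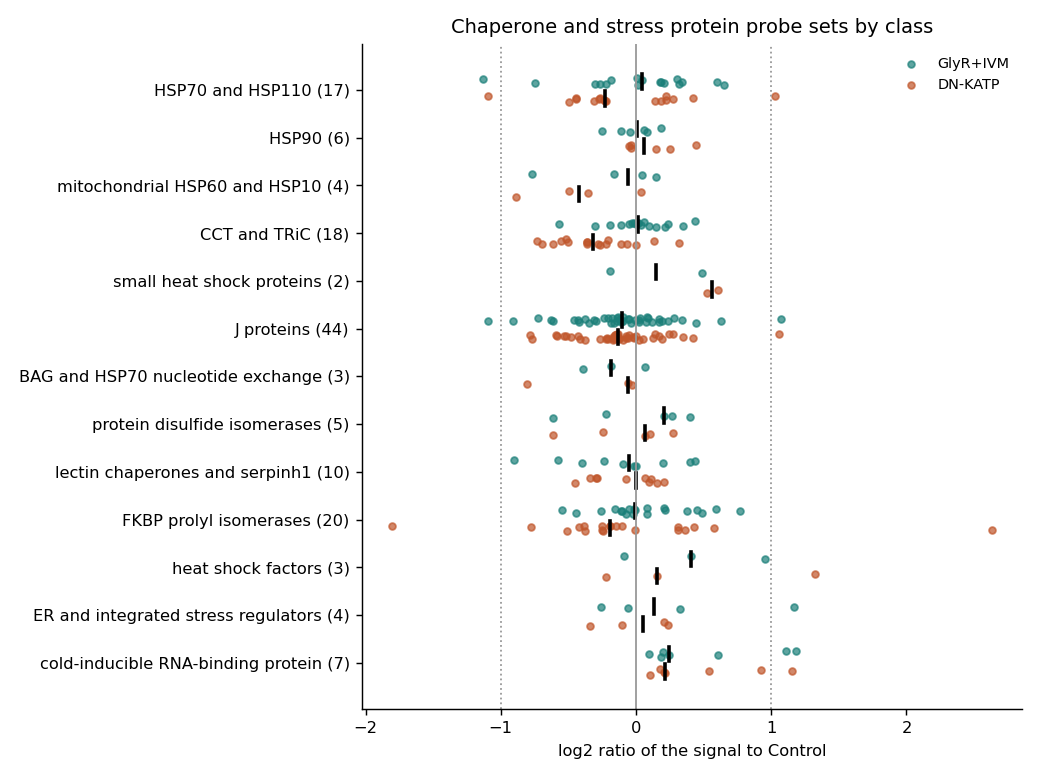
Log2 ratio of the signal to Control (x axis) for the chaperone and stress protein probe sets reaching 40 in an array, by class (y axis, number of probe sets in parentheses). Each point is a probe set, black bars are class medians, and dotted lines mark 2-fold; the DN-KATP bar lies at -0.32 for CCT and both cirbp bars lie above 0.

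The cold-inducible gene cirbp had the highest joint increase among members reaching 40. All of its 7 probe sets were above Control in both depolarized arrays at the deposited scaling. They share a gene and are not separate evidence, and several of those for cirbp.S are of the x_at type, which can cross-hybridize. At 1 probe set of cirbp.L the signal was 682 in Control, 1549 under GlyR+IVM and 1518 under DN-KATP. Both depolarized arrays were more than 2-fold above Control there, by 2.27-fold and 2.23-fold, with nearly the same signal in each. Its counterpart for cirbp.S read 1121, 2423 and 2128, which is 2.16-fold and 1.90-fold, so that only GlyR+IVM passed 2-fold. A further cirbp.S probe set read 88.9, 136 and 129, and another 243, 288 and 282.

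At the 3 remaining probe sets cirbp was close to the top of the array's range. Here cirbp.L read 23227, 24851 and 26769, and cirbp.S 23622, 26814 and 25392 at 1 probe set and 18497, 21222 and 20906 at the other. These differences were between 0.10 and 0.20 on the log2 scale, beside medians of 0.16 and 0.05 for all 367 probe sets with a mean signal of 10000 or more. The highest signal of any probe set on the Control array was 34442. The 6 hybridization spike-ins with a Control signal of at least 15000 were 1.29-fold and 1.25-fold above Control, beside 1.34-fold and 1.37-fold for all 27. Probe sets for the same gene thus gave log2 ratios from 0.10 to 1.18 in GlyR+IVM and from 0.10 to 1.15 in DN-KATP. The median cirbp ratio, 0.25 and 0.22, stayed above 0 after quantile normalization and with a common median, though single probe sets crossed it, and became -0.18 and -0.24 on the spike-in scale. The pair at 2-fold or close to it remained above Control on every scale, with log2 ratios of at least 0.47.

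**Figure D2:**
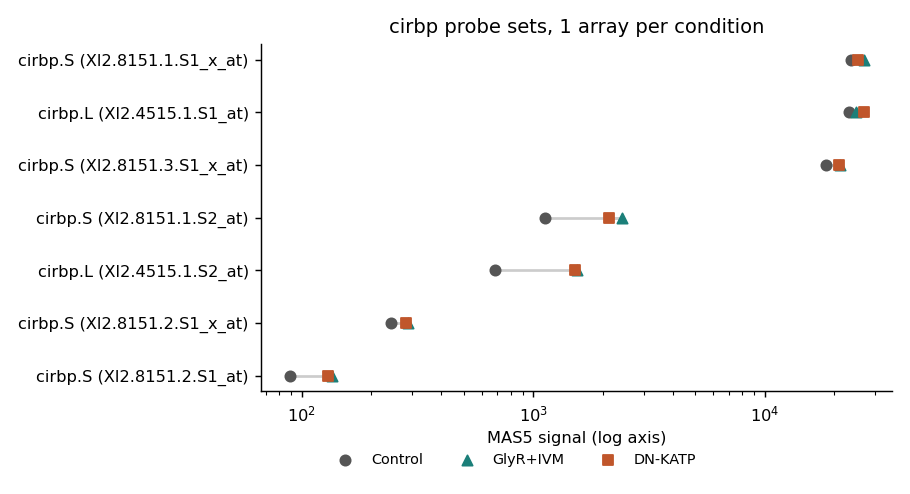
Signals of the 7 cirbp probe sets (x axis, log scale, MAS 5.0 signal) in Control (circles), GlyR+IVM (triangles) and DN-KATP (squares), 1 array each. Control is the leftmost symbol in every row, with the widest gaps at the probe sets reading 682 and 1121 in Control.

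The cytosolic HSP70 proteins, which bind exposed hydrophobic stretches of many clients, did not move as 1 group. With the HSP110 genes, and the HSP70s of the ER and mitochondria, the class had median log2 ratios of 0.05 under GlyR+IVM and -0.23 under DN-KATP. Below Control were 6 and 10 of its 17 probe sets, against 48.5% and 45.0% of all probe sets. The constitutive hspa8.L, which also uncoats clathrin vesicles, read 24646 in Control, 30331 under GlyR+IVM and 28004 under DN-KATP. The closely related hspa1l.S read 24219, 27450 and 28247. Both were higher by no more than 0.30 on the log2 scale, and both turned below Control on the spike-in scale, as hspa1l.S also did in GlyR+IVM after quantile normalization. The gene listed as hsp70.L, named for the family alone, read 237, 358 and 201, and was 1.51-fold above Control in GlyR+IVM and 1.18-fold below it in DN-KATP. The ribosome-associated hspa14 was below Control in both arrays, with signals of 377, 332 and 321 for hspa14.L and 461, 374 and 339 for hspa14.S at the probe sets reaching 40. The stress-inducible hspa1a.S stayed under 40: its 2 probe sets read between 1.84 and 17.0 in all arrays.

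A further HSP70 gene, hspa2.L, known from mammals for its part in sperm formation, read 95.3, 150 and 195. It rose 2.04-fold in DN-KATP and was 1.57-fold above Control in GlyR+IVM, which makes it the only HSP70 gene reaching 40 that was at least 1.5-fold higher in both. The 4 probe sets of hspa4, an HSP110-type exchange factor, lay above Control in both arrays as deposited, by 0.14 to 0.42 on the log2 scale. One of them read 1975, 2502 and 2305. On the spike-in scale the median of all HSP70 and HSP110 probe sets moved down with that of the array, to -0.38 and -0.69, and with a common median it was -0.01 and -0.36.

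The second HSP110 gene, hsph1, behaved otherwise. At hsph1.S the signal was 3970 in Control, 4100 under GlyR+IVM and 1859 under DN-KATP, so it was level in 1 depolarized array and fell 2.14-fold in the other. Its homeolog hsph1.L read 893, 896 and 635, again level in GlyR+IVM and 1.41-fold lower in DN-KATP. The exchange factor hspbp1.L, which releases nucleotide from HSP70, read 1700, 1778 and 972, with the same order of arrays. The log2 ratio of hsph1.S in DN-KATP stayed between -1.08 and -1.55 on all scales. It was 1 of 4 probe sets at least 2-fold lower in DN-KATP than in GlyR+IVM, a rule passed by 2.37% of the array.

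HSP90, the chaperone of kinases and steroid receptors, differed little between arrays, with a median log2 ratio over 6 probe sets of 0.01 and 0.06 that became -0.05 and -0.07 with a common median. The 4 probe sets of cytosolic hsp90ab1.S had log2 ratios from -0.05 to 0.19 in GlyR+IVM and from -0.04 to 0.44 in DN-KATP. The brightest read 2637, 3003 and 3580, while another read 923, 976 and 897, so probe sets of this gene did not share a direction. The HSP90 co-chaperone gene fkbp4 was below Control in both arrays, with 1555, 1066 and 1158 for fkbp4.S and 581, 522 and 447 for fkbp4.L.

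The mitochondrial chaperonin was below Control in DN-KATP at 3 of its 4 probe sets, by most at its lid. Of all probe sets 45.0% were below it, and 4 probe sets are few for such a comparison. HSP10, encoded by hspe1.L, caps the HSP60 barrel and read 2245 in Control, 2319 under GlyR+IVM and 1214 under DN-KATP, a 1.85-fold difference in the last array only. HSP60, encoded by hspd1.S, was ambiguous: 1 probe set read 3369, 3010 and 2390, lowest in DN-KATP, and the other 4130, 2423 and 4246, lowest in GlyR+IVM. The matrix HSP70 that passes proteins to them, hspa9, was modestly below Control in both arrays, with signals of 1275, 1092 and 938 for hspa9.L and 1484, 1237 and 1231 for hspa9.S. Over the 4 HSP60 and HSP10 probe sets the median log2 ratio was -0.06 under GlyR+IVM and -0.42 under DN-KATP. Among these, the probe set of hspd1.L read only 45.4, 50.2 and 35.6, close to the limit of 40.

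The cytosolic chaperonin CCT, also called TRiC, lay below Control in DN-KATP at most of its probe sets. It is a double ring of 8 different subunits that folds actin and tubulin. Of its 18 probe sets at 40 or more, 16 were below Control in DN-KATP, with a median log2 ratio of -0.32. In GlyR+IVM 7 were below Control, with a median of 0.02. The shares of all probe sets were 45.0% in DN-KATP and 48.5% in GlyR+IVM. Averaged by subunit, all 8 were below Control in DN-KATP, from -0.02 for cct7 to -0.64 for cct4, and 3 of 8 in GlyR+IVM. Set against GlyR+IVM itself, 7 of 8 subunits were lower in DN-KATP, with cct7 the exception. No CCT probe set reached 2-fold.

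The subunit cct4 had the largest DN-KATP difference. Its S homeolog read 3104 in Control, 2719 under GlyR+IVM and 1865 under DN-KATP, 1.66-fold below Control in the last. Its L homeolog read 679, 457 and 463, and so was low in both depolarized arrays. The subunit cct5.S read 1916, 1940 and 1252 at its brightest probe set, and 3 further ones at 40 or more gave log2 ratios from -0.50 to -0.70 in DN-KATP and within 0.06 of Control in GlyR+IVM. These probe sets share a target gene and are not separate evidence. The brightest CCT probe set, listed as cct5b, read 3693, 4360 and 3424, a log2 ratio of -0.11 in DN-KATP. It was averaged with cct5.S in the subunit values, giving -0.49 for cct5 where cct5.S alone had -0.58. Several subunits stood above Control in GlyR+IVM and below it in DN-KATP: cct6a.S read 2727, 3478 and 2365, and cct8.L 2182, 2420 and 1810.

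The first subunit to be described, tcp1, read 2811, 2707 and 2313 for the L homeolog and 1673, 1638 and 1304 for the S homeolog. Only 1 probe set of cct2.S and the probe set of cct7.L were above Control in DN-KATP, the latter at 1545, 1562 and 1922. Both end in a_at, a type that matches several transcripts, which is no sign by itself of cross-hybridization. In a count that was not planned, the types ending in s_at, x_at and a_at were dropped. Both exceptions were among those dropped. That 11 of 11 of the CCT probe sets left were below Control in DN-KATP was thus fixed in advance and adds nothing. Between 15 and 18 of the 18 were below it under quantile normalization, common-median scaling and spike-in scaling, and the median stayed between -0.29 and -0.77, beside -0.42 for the whole array where it was lowest. The GlyR+IVM median did not keep its sign, at -0.04 with a common median. The mean signals of the CCT probe sets ran from 206 to 3826. Of all probe sets with a mean signal from 1000 to 10000, 55.1% were below Control in DN-KATP, and of those from 100 to 1000, 44.9%. The part of signal level in the CCT shift was not tested.

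**Figure D3:**
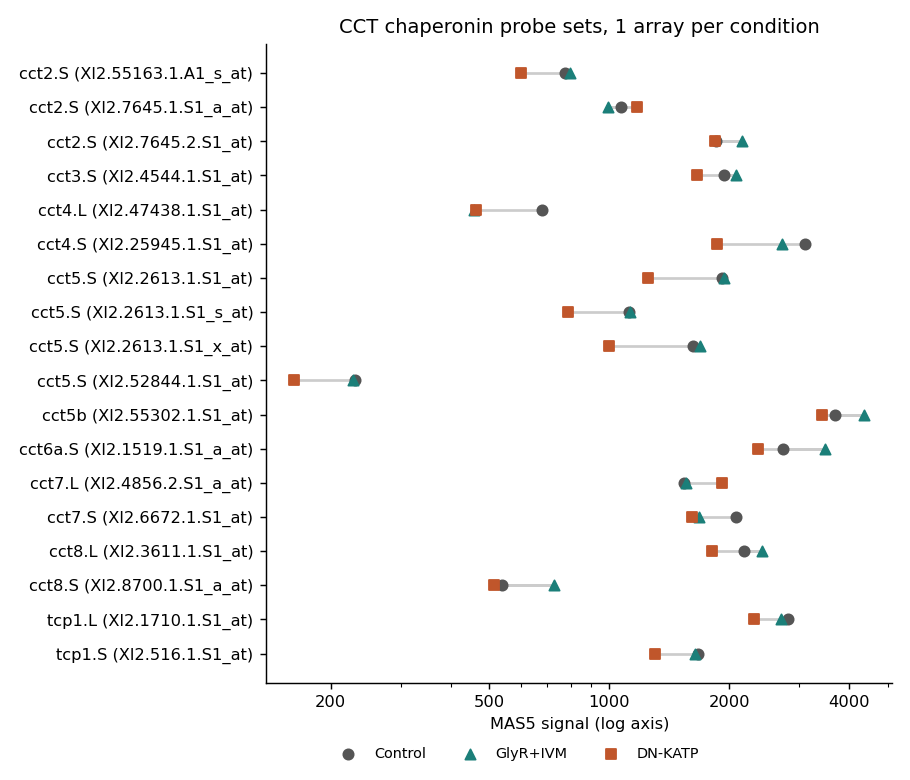
Signals of the 18 CCT probe sets at 40 or more (x axis, log scale, MAS 5.0 signal) in Control (circles), GlyR+IVM (triangles) and DN-KATP (squares), 1 array each. The square lies left of the circle in 16 rows, and for cct4.S it lies at 1865 against 3104.

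J proteins deliver clients to HSP70 and trigger its ATP cycle, and they were the largest class. Of 44 probe sets at 40 or more, 28 were below Control under GlyR+IVM and 33 under DN-KATP, against 48.5% and 45.0% of all. Their median log2 ratios of -0.10 and -0.14 stayed below 0 on every scale. Of the bright cytosolic members, dnaja2.S was nearly flat at 8907, 9053 and 8146, while dnaja2.L read 3615, 4570 and 3991. For dnaja1.L the signals were 8389, 9891 and 7847 at 1 probe set and 2274, 2323 and 2897 at the other. Lower in both depolarized arrays, though under 2-fold, was dnajb6.L, a suppressor of protein aggregation, with 350, 255 and 244. Its brighter homeolog dnajb6.S was nearer to Control, at 2933, 2708 and 2649. Also lower in both was dnajc4.L, with 198, 128 and 115. The spliceosome-associated dnajc8.L read 627, 504 and 417, while its homeolog dnajc8.S read 4294, 4027 and 3854 at its brighter probe set. A dim probe set of dnajc2.S was above Control in both arrays, with 36.2, 56.0 and 48.5. Its brighter probe sets did not share this: they read 1396, 1597 and 1381, then 490, 363 and 435, then 544, 574 and 483.

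A few J proteins passed 2-fold in 1 array only. The endosomal dnajc13.S read 92.0, 83.6 and 191, and so rose 2.08-fold in DN-KATP alone. The Rab-like GTPase with a J domain, dnajc27, was above Control in GlyR+IVM and not in DN-KATP: dnajc27.S read 94.1, 198 and 89.5, and dnajc27.L read 422, 512 and 247. Both homeologs were therefore at least 2-fold lower in DN-KATP than in GlyR+IVM. The cytosolic dnajb4.S ran the other way, with 198, 105 and 239, and was at least 2-fold higher in DN-KATP than in GlyR+IVM, as were 5 of the 160 probe sets against 3.29% of the array. A subunit of the mitochondrial import motor, dnajc19.L, read 72.7, 34.0 and 81.8 at a dim probe set but 3111, 3282 and 2957 at a bright one, where no difference was seen. The BAG-domain gene bag6, which guards tail-anchored membrane proteins, read 956, 843 and 918 for its S homeolog, and bag3.L stayed under 40.

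In the ER, the L homeolog of the lumenal HSP70 and a few J proteins, dnajb9.L foremost, were low in GlyR+IVM. The gene hspa5.L encodes BiP, the central chaperone of the compartment and a classical target of the unfolded protein response. Its signal was 1054 in Control, 481 under GlyR+IVM and 849 under DN-KATP, so it fell 2.19-fold in GlyR+IVM and was 1.24-fold below Control in DN-KATP. A second probe set of the same target read 2068, 1230 and 1773, with the same order. Its homeolog hspa5.S did not share the GlyR+IVM difference and read 1122, 1134 and 930. At the first hspa5.L probe set the GlyR+IVM log2 ratio stayed between -1.08 and -1.56 on all scales. At the second it was between -0.72 and -1.18, and -0.75 as deposited.

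The J protein dnajb9.L, which acts with BiP and in mammals is induced through xbp1, read 1067, 645 and 799. Also low in GlyR+IVM, though by less, were dnajb14.S with 504, 330 and 449 and dnajb12.S with 1090, 838 and 906. Further ER J proteins were nearer to Control there: dnajb11.L read 1467, 1654 and 1268, dnajb11.S 2353, 2080 and 2262, and dnajc3.L 900, 864 and 824. At dnajc1.S the signals were 356, 402 and 389, and at dnajc10.S 112, 91.6 and 133. The oxidoreductase pdia6.L read 1649, 1080 and 1077, equally low in both depolarized arrays, while pdia6.S read 2965, 3417 and 2500 and was above Control in GlyR+IVM. Other disulfide isomerases, which form and correct disulfide bonds, went in either direction. The signals were 9180, 11014 and 9609 for pdia3.S, 2582, 3410 and 2779 for pdia4.L, and 1532, 1314 and 1853 for pdia5.L. Under 40 throughout, pdia2.L read 37.9, 19.1 and 20.8. The ER HSP90 read 8015, 7436 and 7746 for hsp90b1.L and 3018, 2531 and 3337 for hsp90b1.S. Of 24 probe sets of chosen ER genes, 16 were below Control under GlyR+IVM and 14 under DN-KATP, against 48.5% and 45.0% of all. The genes were hspa5, hsp90b1, dnajb9, dnajb11, dnajc3, dnajc10, calr, canx, pdia3, pdia4, pdia5, pdia6, xbp1, atf4 and ddit3. Other ER genes were left out. Among them, dnajc1, fkbp9, fkbp10 and fkbp14 were above Control in GlyR+IVM at their brightest probe sets, and serpinh1, dnajb12 and dnajb14 were below it.

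**Figure D4:**
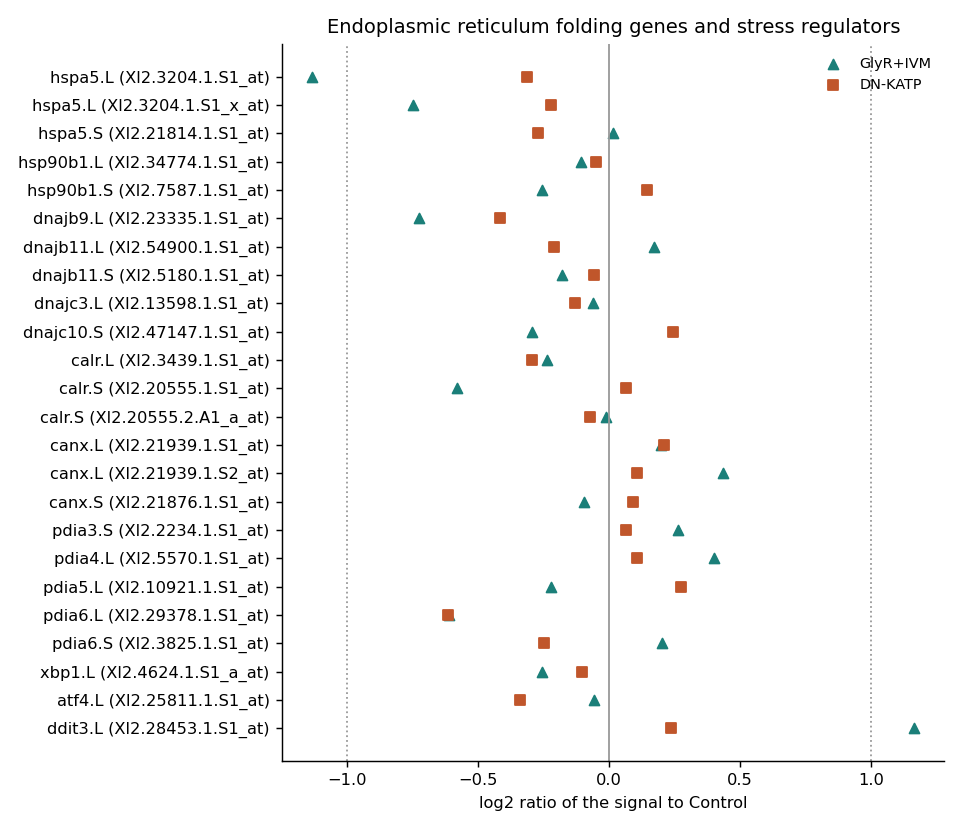
Log2 ratio of the signal to Control (x axis) at 24 probe sets of chosen endoplasmic reticulum chaperones, oxidoreductases and stress regulators. Triangles are GlyR+IVM and squares DN-KATP, 1 array each. Dotted lines mark 2-fold, which hspa5.L passed downward (1054 to 481) and ddit3.L upward (55.1 to 124), both in GlyR+IVM.

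The lectin chaperones hold glycoproteins in the ER until they are folded. Calreticulin, a soluble lectin that also stores calcium, read 8872, 7528 and 7233 for calr.L, below Control in both depolarized arrays. For calr.S, 1 probe set read 11133, 11042 and 10597 and the other 1763, 1180 and 1844, so the low GlyR+IVM value was seen at 1 of them only. Its membrane-bound relative calnexin was slightly above Control, with canx.L at 4719, 5424 and 5455 and, at a second probe set, 7086, 9593 and 7634. The S homeolog canx.S read 4324, 4053 and 4611.

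The collagen chaperone HSP47, encoded by serpinh1, gave mixed values. Its brightest probe set, for serpinh1.L, read 427, 324 and 338, while serpinh1.S read 317, 418 and 260, above Control in GlyR+IVM and below it in DN-KATP. Another probe set of serpinh1.L, which can cross-hybridize, read 133, 132 and 96.9. The probe set of serpinh1.S that passed 2-fold between the depolarized arrays read only 39.5, 21.1 and 44.1. A last probe set of serpinh1.L stayed under 40, at 6.94, 11.3 and 6.61.

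FKBP proteins are prolyl isomerases, of which several work in the ER on collagen and other secreted proteins. The class had 11 of 20 probe sets below Control under GlyR+IVM and 14 of 20 under DN-KATP, with medians of -0.01 and -0.19. Of all probe sets, 48.5% and 45.0% lay below Control. The ER member fkbp14.L, a collagen-directed isomerase, read 4907, 6369 and 6616 and was above Control in both arrays except on the spike-in scale. A second ER member, fkbp9.L, read 425, 724 and 544, while its dimmer homeolog fkbp9.S read 80.2, 79.4 and 99.5 at its brighter probe set. Another, fkbp10.L, read 2755, 3866 and 2329, where only GlyR+IVM was above Control. The mitochondrial fkbp8.L had the same pattern with 172, 260 and 145. The cytosolic fkbp1a, the receptor of the drug FK506, was flat at its brightest probe set, with 4020, 3952 and 3740.

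The widest ratios of the class came from dim probe sets. One of fkbp1b.L read 7.79, 10.7 and 48.4, a 6.21-fold difference for DN-KATP, while another probe set of the gene read 72.0, 76.1 and 50.7, in the opposite direction. For fkbp2.L, 1 probe set read 97.4, 81.2 and 27.9 and the other, brighter one 1071, 994 and 820. A 3.49-fold decrease at the first was thus 1.31-fold at the second. The homeolog fkbp2.S went the other way, with 587, 622 and 876. The meiotic HSP90 co-chaperone of mammals, fkbp6.L, read 203, 150 and 119.

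Of the regulators, ddit3.L was the only one to pass 2-fold from a probe set above 40 in Control. It encodes CHOP, a transcription factor made in prolonged ER stress, and read 55.1 in Control, 124 under GlyR+IVM and 65.0 under DN-KATP, a 2.24-fold increase in GlyR+IVM. Its log2 ratio there was 1.17, at a dim probe set with a mean signal of 81.3. In GlyR+IVM, all probe sets of mean signal from 40 to 100 had a standard deviation of 0.73. The upstream activator of ddit3, atf4.L, read 2400, 2308 and 1897. The gene xbp1.L, which drives ER chaperone genes after its mRNA is spliced, read 8439, 7069 and 7866. The mTORC1 inhibitor gene ddit4.S read 6839, 8554 and 7896, above Control in both.

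The heat shock factor hsf1 stayed near the limit of 40. At the probe set listed as hsf1, the master factor of the heat shock response, the signal was 20.4, 39.6 and 51.1, a 2.51-fold increase in DN-KATP and 1.94-fold in GlyR+IVM, where it stayed just under 40. At hsf1.S it was 37.4, 49.5 and 41.7. The related hsf2.L read 1493, 1407 and 1283 and lay slightly below Control in both.

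The classical small heat shock proteins, which bind unfolded proteins without ATP, were nearly undetected. Signals of hspb1.L, hspb1.S, hspb6.L and hspb8.L were under 20 in all arrays. The hspb7.L signal was 78.0, 68.4 and 119. At hspb11.L it was 131, 184 and 189, and the product of that gene is an intraflagellar transport subunit rather than a chaperone. In all, 11 symbols had no probe set at 40: besides these 4, they were bag3.L, hspa1a.S, dnajb2.L, fkbp7.L, pdia2.L, hspbap1.L and tcp11l1.L.

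**Figure D5:**
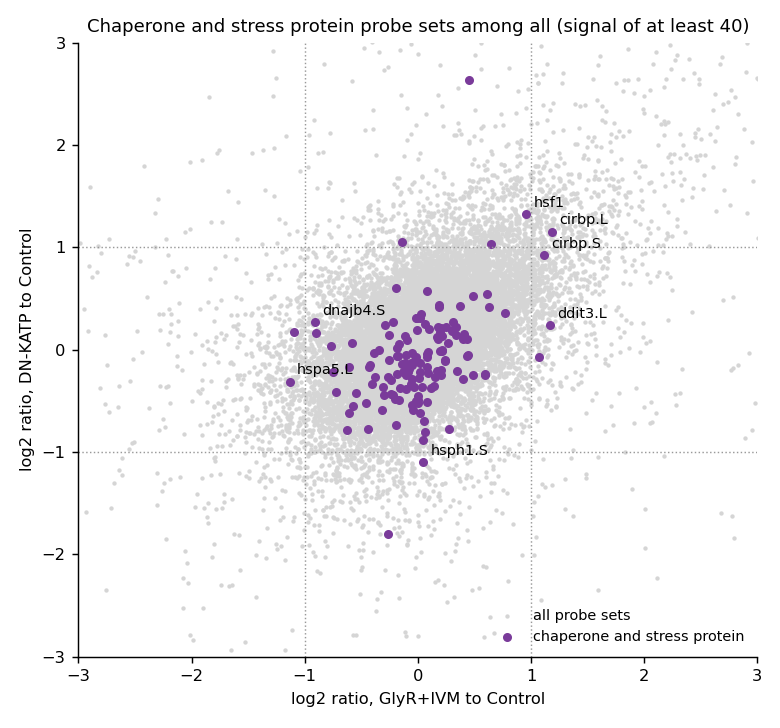
Log2 ratio to Control in GlyR+IVM (x axis) and in DN-KATP (y axis) for probe sets reaching 40 in an array, with chaperone and stress protein probe sets in purple over all others in grey. Both axes share the Control array, dotted lines mark 2-fold, 275 other probe sets lie beyond 3 on an axis, and 1 purple point, cirbp.L, passes 2-fold upward on both.

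Homeologs and repeated probe sets show how far probe sets of a gene agree within the same 3 arrays. They do not measure the scatter between pools or arrays, and homeologs may truly differ. Over 102 pairs of probe sets with the same base name, the log2 ratios of a pair differed by a median of 0.31 under GlyR+IVM and 0.23 under DN-KATP. For 27 base names with both homeologs at 40 or more, L and S lay on the same side of Control for 17 under GlyR+IVM and for 22 under DN-KATP, 18 of the latter both below. A single log2 ratio smaller than these lies within the disagreement between probe sets of a gene. A larger one is not thereby beyond the scatter between replicates, which is unknown. Genes with many probe sets, such as cirbp with 7, enter many of the pairs. For some genes L and S differed by more: the median of hspa5.L was -0.94 in GlyR+IVM and that of hspa5.S 0.01, and pdia6.L was -0.61 where pdia6.S was 0.20.

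Genes that work with these families but fall outside them were read from fixed lists. At 40 or more were 35 co-chaperone, 31 ER folding and degradation, and 12 oxidative and general stress probe sets. None was 2-fold higher or lower in both depolarized arrays. Of all probe sets, 1.25% were higher and 0.470% lower, so none in lists this small is near the share of the array. Co-chaperones lay below Control at 21 of 35 probe sets under DN-KATP, against 45.0% of all. The prefoldin genes among them did not share this: pfdn5 and pfdn6 were above Control there, and vbp1 probe sets went in either direction. The median log2 ratio of the co-chaperone list was -0.02 under GlyR+IVM and -0.17 under DN-KATP. The HSP90 activator ahsa1 followed that order, with 2855, 2906 and 2177 for ahsa1.S and 406, 391 and 203 for ahsa1.L. ER folding and degradation genes had medians of -0.13 and 0.01, with manf.S, a secreted BiP partner, at 2726, 1811 and 1745. The general stress list had medians of 0.07 and 0.35, with 6 and 9 of its 12 probe sets above Control. Only 8 of its 15 genes had probe sets of their own. The cold-inducible genes listed, rbm3, ybx1 and csdc2, were not among them. In GlyR+IVM those above were all of the growth arrest genes gadd45a and gadd45g, of which gadd45g.S read 734, 1285 and 1178. The probe sets of hmox1, sqstm1, nfe2l2, keap1, txn and txnrd1 at 40 or more were all below Control there. In DN-KATP, hmox1.L, sqstm1.L and txnrd1.L were below it as well. These examples were chosen after their values were seen.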

How the data were processed

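Total RNA of 50 pooled embryos per condition was labelled and hybridized to the *X. laevis* Genome 2.0 array. The deposited intensity values are linear MAS5 signals, which the authors normalized array by array; the software version and scaling target are not given in the sources used here, and present calls were not used here. Signals were used as deposited, without the 96 control probe sets. Members were found by platform gene symbol (15495 of 32539 probe sets have 1, 279 several and 16765 none), and 159 of 160 matched RefSeq by Entrez ID with 0 symbols changed. Chromosome positions and sequences were not analysed here.

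Members, classes and lists were chosen with earlier results of these data known. Named probe sets were those past 2-fold in both arrays, the 2 brightest of each class, the 10 largest joint increases and decreases, the 5 largest differences between depolarized arrays with 40 in both of these or 100 in 1, all probe sets of cirbp, hspa5, hsp90b1, xbp1, atf4, ddit3, ddit4, serpinh1, calr, canx and heat shock factors, and further probe sets of these genes; others are examples chosen after their values were seen. A signal of 40 stands for the present call of the study's methods. Low signals near or under 40 give imprecise ratios, and the number of arrays limits all precision. Medians are over probe sets with 40 in any array. Alternatives were other floors and fold thresholds, quantile normalization, a common median, spike-in scaling, an offset of 32 and gene means. A further alternative dropped the probe set types ending in s_at, x_at and a_at, which may match several transcripts. Class medians under these scalings were added after seeing the data. The counting rule was tested on simulated data. Python 3.11 was used.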

Additional observations from a re-analysis of the deposited data

How the results depend on the processing

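With 1 member higher in both depolarized arrays (cirbp.L), the count was 5 with no signal floor, adding hspb8.L, fkbp1b.S, tcp11l1.L and hspbap1.L, all under 40, and 2 with a floor of 20. It was 3 at 1.5-fold (with hspa2.L and cirbp.S), 0 at 3-fold, 0 on the spike-in scale and 0 with the mean over the probe sets of a gene symbol. It stayed at 1 with a floor of 100, quantile normalization, a common median, an offset of 32 and without the s_at, x_at and a_at types. The count of 0 lower became 2 at 1.5-fold and 2 on the spike-in scale (pdia6.L and dnajc4.L in both), and 1 after quantile normalization (pdia2.L). The GlyR+IVM median of -0.0016, which lay on either side of 0 under the floors tried, was -0.43 on the spike-in scale. The DN-KATP median of -0.13 was -0.26 with a common median and -0.59 on the spike-in scale, and stayed below 0 in every alternative run. Spike-in scaling lowers both depolarized arrays by construction. Of 70 named probe sets, quantile normalization turned the sign of 5 under GlyR+IVM and 3 under DN-KATP, a common median 3 and 6, and the spike-in scale 25 and 22. No paired analysis was possible because each condition is 1 array, and for the same reason no array could be left out.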
